A study of Mus musculus with 6 samples.

Results

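Genes of the synapse and of regulated secretion were examined in the cortex of mouse embryos with a conditional deletion of the histone deacetylase genes Hdac1 and Hdac2. The 49 genes encode proteins of synaptic vesicles, of vesicle fusion, of the presynaptic active zone, of synaptic adhesion, postsynaptic scaffolds, receptors and cargo of secretory granules, and were taken from a fixed list of symbols. Of 12041 symbols in the deposited table, 28 were members of this list, and 18 of these were expressed highly enough to be tested. Where a symbol had several rows, the row with the largest mean normalized count stood for it.

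RNA was sequenced from C57BL/6 cortex at embryonic day 12.5 in 3 wild-type (WT) libraries, called HC-1, HC-8 plus HC-10, and 3 libraries in which Hdac1 and Hdac2 were conditionally deleted together (cKO), called HM-5, HM-13 and HM-16. The series' design text speaks of forebrain where the sample labels give cortex. The columns HC and HM were read as control and mutant from their letters, and which column is which numbered replicate is not given. What drives recombination, in which cells, the deleted exons, the alleles of the WT embryos and whether a library is 1 embryo: none of this is given in the sources used here. The p-values therefore set group differences against the scatter of these 6 libraries within their groups, which can be partly technical.

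At a synapse, vesicles filled with transmitter dock at the active zone, where SNARE proteins (SNAP-25, syntaxin and synaptobrevin) drive fusion, synaptotagmins sense calcium and complexins hold or release the fusion machinery. Neurexins and neuroligins join the membranes of both sides, and scaffolds such as PSD-95, SHANK and HOMER hold receptors opposite the release site. In progenitors and non-neuronal cells many of these genes are kept silent by the repressor REST, which binds a DNA element called RE1 and recruits corepressor complexes that contain HDAC1 and HDAC2. At this embryonic stage the cortical wall consists mostly of progenitors, and the first neurons have only begun to form.

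RE1 elements were looked for in the promoters, because the genes were to be separated into known REST-repressed genes and others. The canonical RE1 consensus, 21 letters with 19 defined bases, was searched on both strands with at most 4 mismatches in RefSeq promoter windows of 300 bases (250 before to 50 after the start, GRCm38.p6). A window was available for 36 of the 49 genes. Matches were found for 3 of these genes (8.33%), against 0.463% of 6267 tested genes and 0.274% of all 27025 genes with a window. The 3 genes, Gria2, Syn1 and Celsr3, are all among the 17 members listed as REST-repressed. These 17 were listed as known targets of a repressor that binds RE1. The list itself thus favours matches, and the excess over the background is no independent result. Capitals mark bases that equal the consensus, and small letters mark its free positions and the mismatches.
Gria2, 2 mismatches: TTtAGCACCgcGGACAGCGCt
Syn1, 2 mismatches: TTCAGCACCgcGGtCAGaGCC
Celsr3, 3 mismatches: TTCAGCACCgtGGgCAGCaCt
The Gria2 match lies at chr3:80802989-80803009 on the plus strand, 174 to 154 bases before the start. The Syn1 match lies at chrX:20921130-20921150 on the minus strand and the Celsr3 match at chr9:108825918-108825938 on the plus strand. No other member had the consensus in its window, which says only that these letters are not there. Gria2 was measured in these libraries, whereas Syn1 and Celsr3 were not analysed here, as the table used has no row of theirs.

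A second motif, the cyclic AMP response element, was searched as TGACGTNA without mismatches on both strands, since chromogranin and secretogranin promoters are known for it. It was found in the windows of 6 of 36 members (16.7%), which were Chga, Chgb, Scg2, Syn1, Rab3a and Homer1, against 5.62% of the tested genes. This search had not been planned. Since the motif was chosen for promoters of members, the higher share among members was partly fixed in advance. The promoters of the chromogranins Chga and Chgb are shown because both hold the element (in capitals), at -44 to -37 and -72 to -65 from the start. Their mean levels lay on opposite sides of WT, but neither passed (limma adjusted p = 0.0561 and 0.0994). The pair was chosen with these values known. Each stretch covers 150 bases up to the RefSeq start, on the plus strand, at chr12:102554791-102554940 for Chga and chr2:132781492-132781641 for Chgb. The Chgb stretch lies inside the GENCODE gene model, which starts further upstream.
Chga: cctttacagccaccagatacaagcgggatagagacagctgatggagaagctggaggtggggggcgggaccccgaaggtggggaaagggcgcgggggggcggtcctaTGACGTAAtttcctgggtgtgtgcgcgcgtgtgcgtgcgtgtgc
Chgb: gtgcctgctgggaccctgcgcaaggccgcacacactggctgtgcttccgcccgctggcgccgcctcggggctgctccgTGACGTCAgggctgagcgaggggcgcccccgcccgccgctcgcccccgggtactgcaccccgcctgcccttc

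Levels are given as the deposited FPKM, fragments scaled to transcript length and to a size factor per library, and not to library totals. The size factors recovered from the values were 0.804 for HM-13 and 0.984 to 1.19 for the other libraries. Reads recovered from these values total 9712556 to 11922665 per library. Ribosomal RNA (the row Rn45s) took 29.7% of the reads of HM-13, compared with 0.506% to 2.48% elsewhere. Both targeted genes were lower in every cKO library than in any WT library: Hdac1 had 193 to 212 FPKM in WT and 45.5 to 61.0 in cKO, and Hdac2 had 134 to 272 and 37.6 to 61.7 FPKM. Within the cKO, HM-13 had the highest level of both.

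Of the 18 tested genes, 3 rose and 2 fell in the cKO. The genes that rose were Nlgn2, Bsn and Shank1, which encode a neuroligin and scaffold proteins of both sides of the synapse. The genes that fell were Sv2a, which encodes a synaptic vesicle glycoprotein, and L1cam, which encodes an adhesion molecule of growing axons. Called are genes with an adjusted p under 0.05 in limma, fitted to log2(FPKM + 1) of all 9359 symbols with at least 1 FPKM in at least 3 libraries, with Benjamini-Hochberg adjustment. Over all tested symbols 18% were called, 9.62% as higher and 8.39% as lower. The 5 called members make up 27.8% of the 18. All 18 tested members had at least 1 FPKM in all 6 libraries, so none was tested only through the group in which it was high. WT and cKO values did not overlap for 10 of the 18 genes, 6 higher and 4 lower in cKO, against 39.1% of all tested symbols (19.5% higher and 19.6% lower). The median log2 fold change over the 18 was 0.12, against -0.01 over all symbols.

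**Figure D1:**
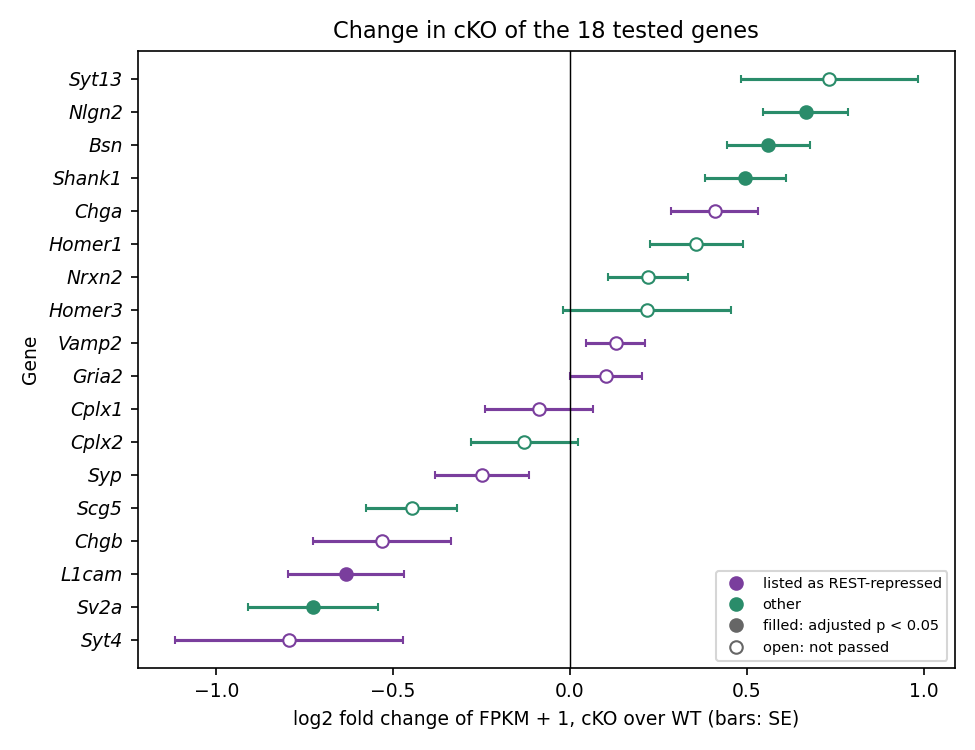
The log2 fold change (horizontal axis, cKO over WT, on FPKM + 1) is plotted for each of the 18 tested genes, with bars for the standard error and filled points for adjusted p under 0.05. Nlgn2, Bsn and Shank1 lie at 0.50 to 0.67, and Sv2a and L1cam at -0.73 and -0.63.

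Nlgn2 encodes neuroligin 2, the postsynaptic adhesion molecule of inhibitory synapses (chromosome 11, 69823122 to 69837784, GRCm38). It had 3.72 FPKM in HC-1, 4.74 in HC-8 and 4.84 in HC-10, against 8.09, 7.65 and 7.03 in HM-5, HM-13 and HM-16. Every cKO library was above every WT library, and the spread within each group was small beside the gap. The mean rose 1.71-fold from 4.43 ± 0.62 to 7.59 ± 0.53 FPKM (SD, n = 3 each), with a log2 fold change of 0.67 (SE 0.12, limma adjusted p = 0.0118). Of the 6 fits that leave out 1 library, the call was lost in 1, without HM-5 (adjusted p = 0.0617). A second coding row, Nlgn2-201, had 0.69 ± 0.26 FPKM in WT, against 0.99 ± 0.10 in cKO, and its groups overlapped.

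Bsn encodes bassoon, the giant scaffold protein of the presynaptic active zone (chromosome 9, 108096022 to 108190384). It had 3.88, 4.93 and 4.74 FPKM in WT, against 7.52, 6.51 and 7.34 in HM-5, HM-13 and HM-16. The groups did not overlap, and HM-13 was the lowest cKO library. The mean rose 1.58-fold from 4.52 ± 0.56 to 7.12 ± 0.54 FPKM (log2 fold change 0.56, SE 0.12, limma adjusted p = 0.0183). It did not pass without HM-5 or without HM-16 (adjusted p = 0.0850 and 0.0713). Rims2, the only other active zone member with a row, was near the detection limit, with at most 0.527 FPKM.

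Shank1 encodes a scaffold protein of the postsynaptic density (chromosome 7, 44310253 to 44360572). It had 4.76, 5.25 and 5.49 FPKM in WT, against 8.09, 6.69 and 8.36 in HM-5, HM-13 and HM-16. Again all cKO libraries lay above WT, with HM-13 nearest to it. The mean rose 1.49-fold from 5.17 ± 0.37 to 7.72 ± 0.90 FPKM (log2 fold change 0.50, SE 0.12, limma adjusted p = 0.0254). The call was the least stable of the risen genes, since leaving out any library but HM-13 ended it (adjusted p = 0.0170 there and up to 0.107 elsewhere). A second coding row, Shank1-201, had 0.77 ± 0.21 FPKM in WT, against 1.15 ± 0.19 in cKO, and its groups overlapped.

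**Figure D2:**
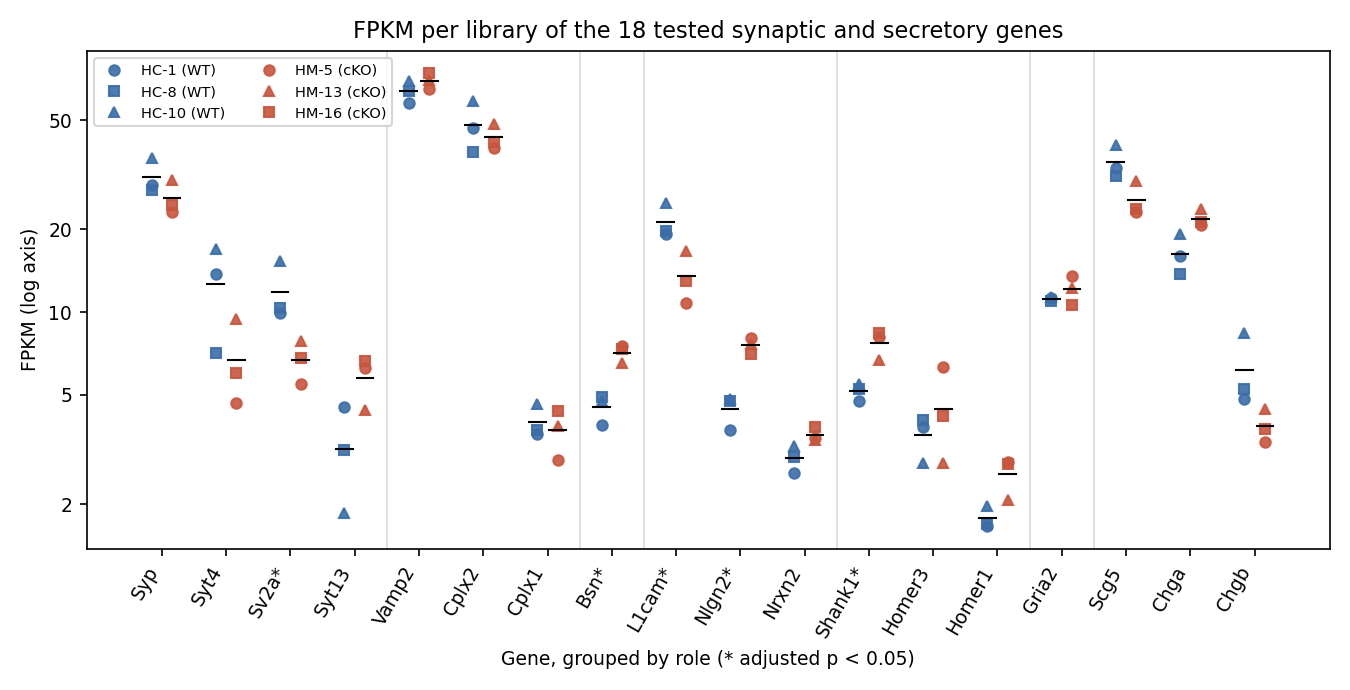
FPKM (log axis) of the 18 tested genes is plotted per library, with WT in blue, cKO in red, a marker shape for each library and a black line at each group's mean. The cKO points of Bsn, Nlgn2 and Shank1 lie above all WT points, and those of Sv2a, L1cam, Scg5 and Chgb lie below them.

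The other postsynaptic scaffold genes did not pass. Homer1, which links glutamate receptors to SHANK proteins, had 1.66, 1.69 and 1.98 FPKM in WT, against 2.86, 2.07 and 2.797 in HM-5, HM-13 and HM-16 (limma adjusted p = 0.0996). Its groups did not overlap, and it passed without HM-13 (adjusted p = 0.0444). Homer3 rested on 17 to 50 reads per library and overlapped between groups, with 2.82 to 4.04 FPKM in WT and 2.82 to 6.33 FPKM in cKO.

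Nrxn2 encodes a presynaptic partner of neuroligins, and the table has 4 rows for it. The row used for the count above names Nrxn2-205, a long coding transcript (chromosome 19, 6418731 to 6533217). It had 2.59, 2.97 and 3.26 FPKM in WT, against 3.49, 3.43 and 3.82 in cKO, without overlap and without passing (limma adjusted p = 0.216). The row of Nrxn2-203, a shorter coding transcript that starts inside the gene at 6497835, had 3.71, 3.58 and 3.63 FPKM in WT, against 6.68, 5.20 and 7.16 in HM-5, HM-13 and HM-16. That row was 1.74-fold higher in cKO (log2 fold change 0.65, SE 0.13) and passed when each row of the table was tested on its own (adjusted p = 0.0161). The difference between the rows was not tested. With all rows of a symbol summed, Nrxn2 was called higher. A retained-intron row, Nrxn2-212, had 1.11 ± 0.22 FPKM in WT, against 1.04 ± 0.47 in cKO. How reads shared by overlapping transcripts were split between rows is not given in the sources used here, so the levels of single rows are uncertain.

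**Figure D3:**
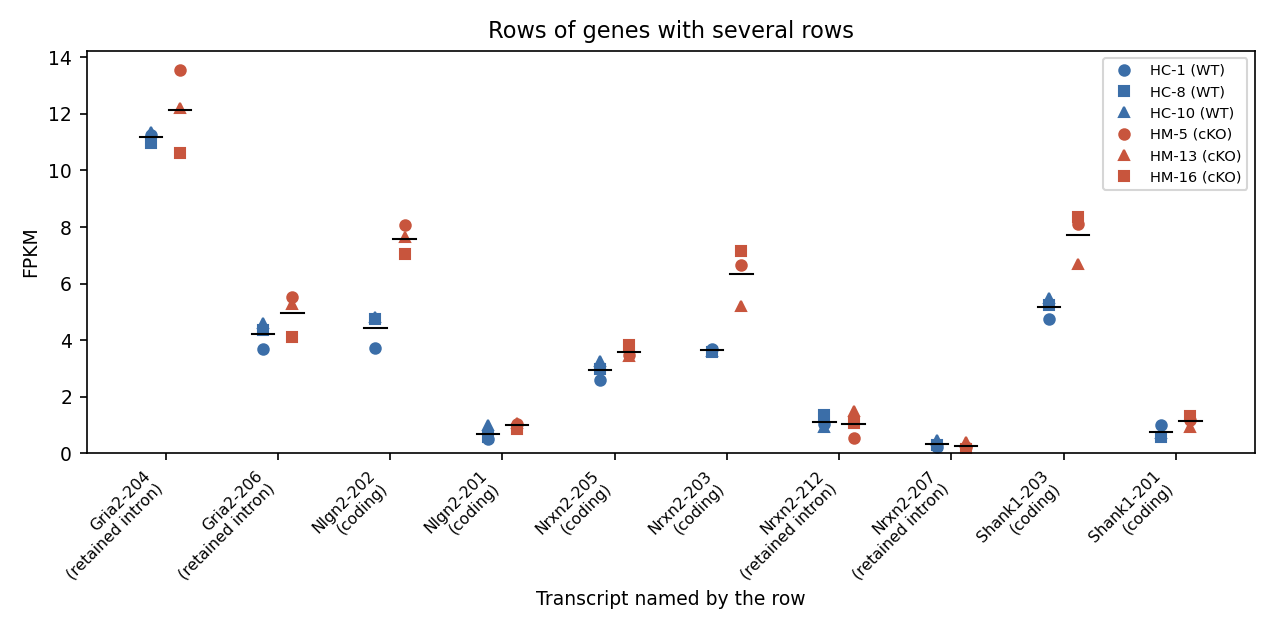
FPKM per library (WT blue, cKO red, black lines at group means) is plotted for each row of the 4 genes Gria2, Nlgn2, Nrxn2 and Shank1, named by transcript and type. The cKO points of Nrxn2-203, Nlgn2-202 and Shank1-203 lie clear above WT. Those of both Gria2 rows, Nlgn2-201, Shank1-201, Nrxn2-212 and Nrxn2-207 overlap with it.

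Among vesicle genes, Sv2a fell. It encodes a glycoprotein carried by synaptic vesicles and the binding site of the drug levetiracetam (chromosome 3, 96181151 to 96195521). It had 9.94 FPKM in HC-1, 10.4 in HC-8 and 15.3 in HC-10, against 5.49, 7.85 and 6.80 in HM-5, HM-13 and HM-16. The groups did not overlap, HC-10 was the highest library and HM-13 the highest of the cKO. The mean fell to 56.5% of WT, from 11.9 ± 3.0 to 6.71 ± 1.19 FPKM (log2 fold change -0.73, SE 0.18, limma adjusted p = 0.0334). The call held without HC-1 and without HM-13 and was lost in the other 4 fits (adjusted p up to 0.120).

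L1cam encodes an adhesion molecule of axons that has an RE1 known from earlier work (chromosome X, 73853778 to 73896105). It had 19.3, 19.8 and 25.01 FPKM in WT, against 10.8, 16.8 and 12.98 in HM-5, HM-13 and HM-16. All cKO values were below WT, and HC-10 and HM-13 were again the highest of their groups. It fell to 63.3% of WT (log2 fold change -0.63, SE 0.16, limma adjusted p = 0.0361), a call that was kept without HM-13 (adjusted p = 0.0139) and lost in the 5 fits that left out another library (adjusted p up to 0.115).

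The other vesicle genes did not pass. Synaptotagmin 4 (Syt4) had 13.7 FPKM in HC-1, 7.12 in HC-8 and 17.0 in HC-10, against 4.67, 9.40 and 6.00 over the cKO (limma adjusted p = 0.128). HM-13 lay above HC-8, so the groups overlapped. Synaptophysin (Syp), the abundant vesicle membrane protein used as a synapse marker, had 31.0 ± 4.6 FPKM in WT, against 26.0 ± 3.8 in cKO (adjusted p = 0.230). Syt13, a synaptotagmin that lacks calcium binding, lay the other way, with 4.50, 3.16 and 1.85 FPKM in WT, against 6.27, 4.39 and 6.65 in HM-5, HM-13 and HM-16 (limma adjusted p = 0.0804). Its highest WT library, HC-1, was just above HM-13. Syn2 had at most 0.786 FPKM.

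Genes of the fusion machinery did not pass, and Vamp2 and Cplx2 had the highest levels of all tested members. Vamp2, which encodes the vesicle SNARE synaptobrevin 2, had 57.6, 64.0 and 69.3 FPKM in WT, against 65.0, 69.8 and 74.0 in cKO (log2 fold change 0.13, SE 0.08). Cplx2 had 47.9 ± 10.2 FPKM in WT, against 43.3 ± 4.6 in cKO (log2 fold change -0.13, SE 0.15). Cplx1 had 3.99 ± 0.56 and 3.71 ± 0.74 FPKM (log2 fold change -0.09, SE 0.15). The groups overlapped for all 3 genes, and their limma adjusted p-values were 0.320, 0.589 and 0.724. Snap25 and Vamp1 were low, with at most 1.26 and 0.883 FPKM. A pair of rows names the same Snap25 transcript with unlike values, and both had means of 0.668 to 0.796 FPKM in either group.

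Gria2, the AMPA receptor subunit gene with the RE1 match printed above, was the only receptor member tested. It had 11.3, 11.0 and 11.4 FPKM in WT, against 13.6, 12.2 and 10.6 in HM-5, HM-13 and HM-16. WT libraries were tightly grouped, and HM-16 fell below all of them while HM-5 and HM-13 lay above. The log2 fold change was 0.10 (SE 0.10, limma adjusted p = 0.525). Both Gria2 rows name transcripts that GENCODE annotates as retained introns. The second had 4.23 ± 0.48 FPKM in WT, against 4.97 ± 0.76 in cKO. Gria4 and Grin2b had at most 0.532 and 0.288 FPKM.

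Secretory granule genes lay on both sides of WT, with no call. Scg5, which encodes the 7B2 chaperone of prohormone convertase 2, had 33.5, 31.3 and 40.7 FPKM in WT, against 23.1, 29.9 and 23.7 in HM-5, HM-13 and HM-16, without overlap (72.6% of WT, limma adjusted p = 0.0508). Chgb, the granule protein chromogranin B, had 4.81, 5.25 and 8.41 FPKM in WT, against 3.37, 4.46 and 3.75 in cKO (62.6% of WT, adjusted p = 0.0994). Chga, chromogranin A, had 16.01, 13.8 and 19.3 FPKM in WT, against 20.7, 23.6 and 21.2 in cKO (1.34-fold, adjusted p = 0.0561). For each of the 3 genes the groups were separate, and 2 of the 3 passed with limma's voom on recovered reads (adjusted p = 0.0424 for Scg5, 0.0450 for Chga and 0.0831 for Chgb). In the authors' deposited table all 3 have an FDR under 0.05, 0.0137 for Scg5, 0.0203 for Chgb and 0.0245 for Chga. Voom called 5 members higher and 3 lower (background 11.2% and 9.26%), adding Chga, Syt13 and Scg5. The authors' deposited table gives 5 members higher and 4 lower (background 11.5% and 9.43%), adding Chgb to these.

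REST-repressed members were compared with the other members. Of the 17 listed as REST-repressed, 8 were tested, and 1 fell (L1cam) and 0 rose with limma. Without adjustment 4 of the 8 had p under 0.05, against 3209 of all 9359 symbols, and with voom 1 rose (Chga) and 1 fell (L1cam). Their median log2 fold change was -0.17, with 5 of 8 below 0, and it was -0.066 without HC-10 and -0.074 without HM-5. Of the 32 other members 10 were tested, of which 3 rose and 1 fell, with a median of 0.29 and 7 of 10 above 0. Over all tested symbols limma called 9.62% higher and 8.39% lower. Subsets of 8 and 10 genes are too small to tell apart from these shares. The difference between these subsets was not tested. The list of REST-repressed genes came from general knowledge and not from binding data of this tissue.

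Genes of the REST complex other than Hdac1 and Hdac2 gave 0 calls with limma and with voom among 12 tested of 15 listed. Of these, 1 had an unadjusted p under 0.05, and 1 was called higher without HM-13 (Rcor1). Rest had 0.959, 1.12 and 0.704 FPKM in WT, against 1.31, 1.12 and 1.09 in cKO (limma adjusted p = 0.358), a low level in both groups. It was singled out as the repressor itself. The corepressor gene Rcor1 had 28.4 ± 1.9 FPKM in WT, against 34.5 ± 2.9 in cKO (limma adjusted p = 0.0631, and 0.0380 without HM-13). Rcor2 had 26.1 ± 0.5 against 28.8 ± 1.7 (adjusted p = 0.208). Of 31 REST-repressed genes outside the synapse list 13 were tested, of which 5 rose and 0 fell with limma (background 9.62% and 8.39%). With voom 5 rose and 1 fell (background 11.2% and 9.26%). The median log2 fold change of the 13 tested was -0.08, with 7 of 13 below 0. Without HM-13, 11 were tested, 3 rose, and Stmn2, Tubb3 and Ina, which are also neuron markers, fell. The genes that rose were the muscarinic receptor gene Chrm4 (0.694 ± 0.295 to 2.39 ± 0.50 FPKM), the neurofilament genes Nefl and Nefm (1.67-fold and 1.61-fold), the calcium channel gene Cacna1h (2.38-fold) and the pacemaker channel gene Hcn3 (1.33-fold). Nefm, with the largest adjusted p of the 5 (limma, 0.0441), was named after its values were seen. Chrm4 and Cacna1h had under 1 FPKM in all WT libraries and could be tested only through the cKO. Cacna1h rested on 8 to 26 reads per library. With 1 library left out, Nefl was called in 4 of 6 fits, Nefm and Hcn3 in 1 of 6. Chrm4 was called in 3 of the 3 fits that tested it, and Cacna1h in 1 of 3. With library totals Chrm4 kept its call, while the limma adjusted p-values of the others were 0.0677 to 0.644.

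Other genes of the synapse gave 6 rises and 0 falls with limma, and of the risen genes Doc2b and Grin2d could be tested only through the cKO. Of 40 further presynaptic genes 16 were tested and 3 rose. Of 42 further postsynaptic genes 11 were tested and 3 rose, against 9.62% called higher over all tested symbols. In both lists 0 genes fell with limma and with voom. Under other settings Syt5, a synaptotagmin gene, fell without HM-13, and the glycine receptor gene Glra2 fell in 1 fit with a library left out and with library totals. Both were named after their values were seen. Glra2 had 54.4% of its WT level, without overlap (limma adjusted p = 0.0683). Sncb (beta-synuclein) had 3.05, 3.74 and 7.46 FPKM in WT, against 10.3, 12.7 and 13.2 in cKO, a 2.54-fold rise (limma adjusted p = 0.0179). Grik4, a kainate receptor subunit gene, rose 2.59-fold from 2.05 ± 0.12 to 5.31 ± 0.77 FPKM (adjusted p = 0.00337) and stayed called whichever of the 6 libraries was left out. Dlgap4, whose protein links PSD-95 to SHANK, rose 1.55-fold from 5.70 ± 0.50 to 8.82 ± 0.47 FPKM, and Rims3, an active zone gene, rose 1.74-fold. With each library left out in turn, Dlgap4 was called in 4 of 6 fits, Sncb in 3 and Rims3 in 1 (adjusted p up to 0.144). Doc2b, a calcium sensor gene of vesicle release, rose 3.62-fold and the NMDA receptor gene Grin2d 2.69-fold, both from under 1 FPKM in all WT libraries. Of 15 further secretory genes 4 were tested and 0 passed with limma or voom, with 1 at an unadjusted p under 0.05. Pcsk1n, the granule protein proSAAS, had 13.75 ± 1.65 FPKM in WT, against 10.5 ± 1.6 in cKO (adjusted p = 0.104), and Pcsk2, the prohormone convertase that Scg5 serves, had 1.34 ± 0.26 against 1.11 ± 0.16 (adjusted p = 0.439). Over these lists and the REST-repressed genes outside the synapse, 44 of 125 genes were tested and 11 were called higher (25% of 44, background 9.62%). Of the 11, 7 had at least 1 FPKM in every library. The other 4 were tested only through the cKO, so they could enter the count only by being high there. The share without them was not computed, and all lists were chosen with earlier results of these data known. The 25% is therefore no measure of an excess over the background. Without adjustment, 5 of the 44 were lower at p under 0.05.

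Neuron markers had lower mean levels in the cKO, as had the members that fell. All 15 listed markers had a row, none was at 0 in any library, and all 14 tested lay below 0, at a median log2 fold change of -0.35. With limma 0 of the 14 passed and 5 had an unadjusted p under 0.05, against 3209 of all 9359 symbols. With voom 2 fell (background 9.26% lower), and without HM-13 6 fell (background 8.9% lower). Their summed level was 1465 FPKM in HC-1, 1528 in HC-8 and 1939 in HC-10, against 1090, 1591 and 1156 in HM-5, HM-13 and HM-16, so HM-13 lay above HC-1 and HC-8. Tubb3 gave 53.1% to 57.8% of the sum. The 8 tested members with a log2 fold change below 0 shared part of this order. For all 8, HC-10 was the highest WT library and HM-5 the lowest cKO library. HM-13 was the highest cKO library for 7, and HC-1 the lowest WT library for 4. These 8 were picked by the sign of their change in the same libraries, and a high HC-10 and a low HM-5 favour that sign. Of the 10 members above 0, HC-10 was the highest WT library for 7, HM-5 the lowest cKO library for 2 and HM-13 the highest cKO library for 1. In whole tissue, fewer neurons and less RNA per neuron cannot be told apart.

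**Figure D4:**
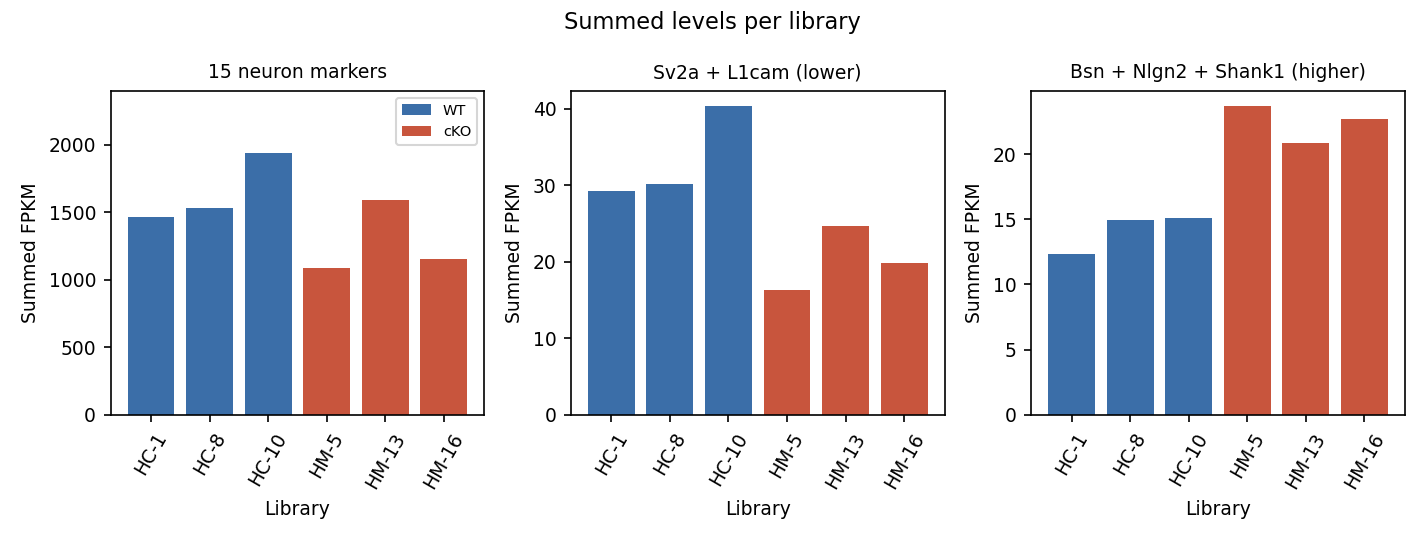
Bars give the summed FPKM per library (WT blue, cKO red) of the 15 neuron markers, of Sv2a and L1cam, and of Bsn, Nlgn2 and Shank1. HC-10 and HM-13 are highest in their groups in the first and middle panels, and in the last panel all cKO bars (20.85 to 23.7 FPKM) exceed all WT bars (12.4 to 15.1 FPKM).

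Set against the summed neuron markers of the same library, of which Tubb3 gave 53.1% to 57.8%, Sv2a and L1cam remained lower in cKO. Single markers ran from 57.6% of WT (Neurod6) to 97.5% (Elavl3), so the outcome can depend on the divisor. Ratios to single markers were not computed. Per 1000 FPKM of neuron markers, L1cam had 13.2, 12.9 and 12.9 FPKM in WT, against 9.91, 10.5 and 11.2 in cKO, or 81.2% of WT, and Sv2a had 7.16 ± 0.65 and 5.28 ± 0.52 FPKM, or 73.8%. Both kept separate groups on this scale, as did Chgb (82.5% of WT). The groups of Scg5, separate before, overlapped (93.9% of WT), and those of Syt4, which overlapped before, still did (67.5%). Syp was at 108% of WT. The divisor itself was at 77.8% of WT in cKO, and each gene given here had a higher ratio on this scale than in FPKM. The groups of Nlgn2, Bsn and Shank1 stayed separate, at 225%, 208% and 198% of WT. These ratios were computed after the values had been seen and carry no test, and the part of neuron content in the calls was not tested.

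Some markers of other cells also differed. Over all tested symbols, 9.62% were called higher and 8.39% lower, and 3209 of 9359 had an unadjusted p under 0.05. The 4 microglial markers with a row, of 6 listed, summed to 31.5 to 35.8 FPKM in WT and 46.8 to 49.6 FPKM in cKO, and Tyrobp and C1qb rose. Of the radial glia markers 9 of 10 had a row and summed to 3262 to 3517 FPKM in WT and 2834 to 3160 FPKM in cKO, and among 7 tested Fabp7 fell and Emx2 rose. Fabp7 alone went from a mean of 824.5 to 311 FPKM, while the median log2 fold change of the 7 was 0.22, with 4 above 0 and 5 at an unadjusted p under 0.05. Among 4 intermediate progenitor markers Btg2 fell to 64.0% of WT, and 0 of 2 tested Cajal-Retzius markers passed with limma or voom, with 1 at an unadjusted p under 0.05. Endothelial, erythroid and meningeal sums overlapped between groups, and 0 of 3, 2 and 5 tested markers passed with limma or voom or had an unadjusted p under 0.05. Sums of the ventral and GABAergic markers with a row (2 of 6) ran from 4.47 to 44.4 FPKM in WT and from 1.46 to 17.7 FPKM in cKO. The part of these cells in the results was not tested.

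The remaining members were scarce or had no row. Of the 28 members with a row, 10 did not reach 1 FPKM in 3 libraries: Syn2, Snap25, Vamp1, Rims2, Nrxn3, Nlgn3, Dlg3, Shank2, Gria4 and Grin2b. They had 0 to 28 reads per library, and WT and cKO overlapped for all 10. Fitted without the filter on low values, 0 of the 10 passed limma's test and 0 had an unadjusted p under 0.05. The neurexin gene Nrxn3 had 0.0566, 0.162 and 0.284 FPKM in WT, against 0, 0.0555 and 0.0906 in HM-5, HM-13 and HM-16, too few reads to show a difference. The other 21 members, not analysed here, are Syn1, Syt1, Syt11, Snap91, Stx1a, Sv2b, Rab3a, Rab3b, Unc13a, Pclo, Dlg2, Dlg4, Gria1, Gria3, Grin1, Grik5, Gabra2, Scg2, Scg3, Vgf and Celsr3.

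**Figure D5:**
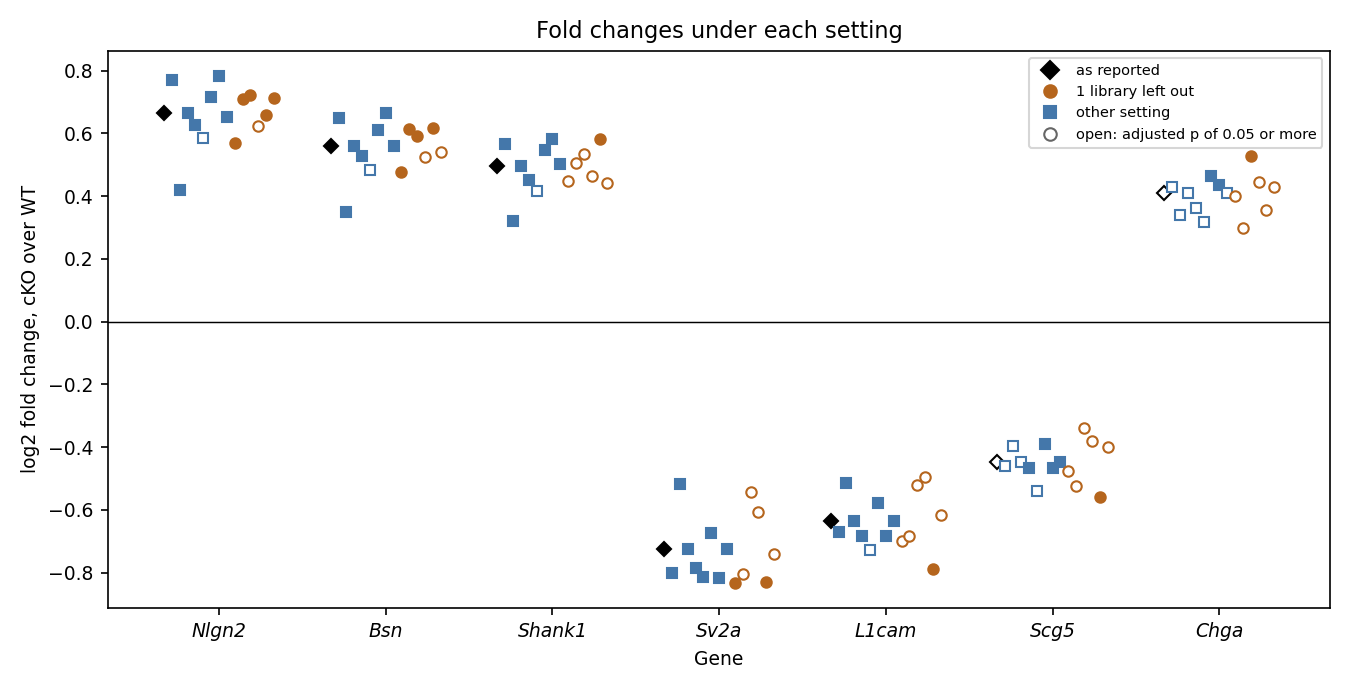
The log2 fold change (cKO over WT) of 7 genes is plotted under each setting, with black diamonds for the reported fit, brown circles for fits with 1 library left out, blue squares for other settings and open symbols where the adjusted p was 0.05 or more. Each gene stayed on its side of 0 in every setting, while its call did not always hold.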

How the data were processed

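The 49 genes and all lists were chosen with earlier results of these data known. Every member was named, and in other lists up to 4 called genes or up to 2 others, by smallest p. The authors deposited FPKM per library. The authors' deposited table also gives mean normalized counts (a signal averaged over libraries), log2 fold changes, p-values and FDR. Per the submitters' processing notes, STAR 2.5.4b, featureCounts 1.6.1 and DESeq2 1.22.1 were used with mm10 (annotation, strand setting and row filters: not given in the sources used here). Each FPKM times mean normalized count over mean FPKM, divided by a step fitted per library, gave whole reads (within 0.01 read) for 100% of values. The table has 14379 rows, and 1950 symbols have several. The design had been written for FPKM with a pseudocount of 1, and limma 3.58.1 (R 4.3.3) was fitted with an intensity trend and group as the only term. It was tested on simulated data. Alternatives were other pseudocounts (0.1 and 5), no filter, other scalings, voom, summed rows and leaving out each library. RE1 had been planned for wider windows, but no genome sequence was used here, so promoters were searched. Positions are from GENCODE M21 (GRCm38).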

Additional observations from a re-analysis of the deposited data

How the results depend on the processing

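No paired analysis was possible because the columns carry no replicate numbers of the labels. The 3 risen and 2 fallen members became 5 and 3 with voom, 5 and 4 by the authors' deposited FDR, and 0 and 2 when library totals, which hold the Rn45s reads of HM-13, set the scale (Sv2a and Syt4 lower). With 1 library left out they ran from 0 to 4 and from 0 to 3, with 0 called in either direction without HM-5. Calls over all genes ran from 511 to 1773 with 1 library left out and were 515 with library totals. Without Rn45s in the totals, a setting chosen after seeing the data, 1747 genes were called, and 4 members rose and 3 fell. Of the other pathway lists, 11 genes called higher became 5 with library totals (1 to 8 with 1 library left out), and 0 called lower became 2 after quantile normalization, 2 with library totals and 1 with voom (0 to 4 with 1 library left out). The median log2 fold change of the members was 0.024 with library totals (0.033 to 0.135 with 1 library left out), and that of the members not listed as REST-repressed was 0.39 with a pseudocount of 0.1, 0.144 with 5, 0.417 with voom and 0.397 with summed rows (0.266 to 0.456 with 1 library left out). That of the REST-repressed members was -0.239 to -0.066 with 1 library left out. The cause of these shifts was not tested. The sign turned for 3 members that were not called: Cplx1 without HC-10 (0.002) or HM-5 (0.042; -0.188 to 0.042 over all libraries left out), Cplx2 without HC-10 (-0.278 to 0.024) and Homer3 without HM-5 (-0.021 to 0.448). The 5 called members kept their sign in all settings and lost their call in 21 of 70 fits. RE1 matches were 3 with at most 3 or 4 mismatches and 4 with 5, and the planned search of wider windows was not run. Members under 1 FPKM, with at most 28 reads, are beyond what this depth resolves.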
